A study of Mus musculus with 6 samples.

Results

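The 43 genes described here encode parts of the autophagy machinery, the lysosome and the TFEB pathway, and were measured in cultured mouse Th17 cells, the CD4+ helper T cells that make IL-17. The genes were taken by symbol from a list of the pathway, with no threshold on their values. All 43 matched 1 identifier each among the 39179 gene identifiers in the count files, and all 43 passed the filter on low counts, which left 13846 genes. The question was whether the transcript levels of this pathway differed between Th17 cells grown with and without desIgf1, a truncated insulin-like growth factor 1 that IGF-binding proteins hold poorly.

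Gene-level read counts came from 6 libraries, 3 of cells cultured with 30 ng/mL desIgf1 and 3 of control cells cultured without it. Naive CD4+ T cells of C57BL/6 mice, labelled as spleen, carried the Il17a/hCD2, Ifng/Thy1.1 and Foxp3/GFP reporters in both groups. For 5 days both groups received TGF-β at 2.5 ng/mL and IL-6 at 20 ng/mL, with antibodies to IFN-γ and IL-4 at 10 µg/mL each, soluble anti-CD3 at 5 µg/mL, and irradiated CD4-depleted splenocytes as feeder cells. RNA was taken from cells sorted as hCD2+, Thy1.1- and GFP-. The treatment text of the labels names desIgf1 for all 6 libraries, so titles and descriptions decided the grouping. The sources used here give neither the age of the mice nor any pooling of animals.

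Autophagy wraps cytoplasm and organelles in a double membrane and delivers them to the lysosome, where acid hydrolases break them down. When nutrients and growth factors are plentiful, the kinase mTORC1, which acts downstream of the IGF1 receptor, PI3K and AKT, inhibits the ULK1 kinase that starts the process. It also keeps the transcription factors TFEB and TFE3 in the cytoplasm, and when it is inactive they enter the nucleus and bind E-box elements of lysosomal and autophagy promoters. In T cells autophagy is known for organelle turnover and survival after activation. Transcript levels measure neither the phosphorylation of these proteins nor the flux through the pathway.

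The promoters show which members carry the sequence that TFEB and TFE3 bind. RefSeq promoter windows (GRCm38.p6, 250 bases before to 50 after the annotated start) were at hand for 35 of the 43 genes, and the motifs were searched on both strands. The E-box CACGTG occurred in 11 of the 35 (31.4%), against 8.09% of all 27025 genes with a window and 11.7% of the 9951 tested genes with one. The longer form GTCACGTG, which contains the E-box, occurred in 8 of the 35 (22.9%), against 2.55% of all genes and 4.76% of tested genes. The full palindrome, with AC added at the end of that form, was in 0 of the 35 windows and in 0.370% of all genes. The 8 genes with GTCACGTG were Atg14, Atg3, Atg7, Lamp1, Mcoln1, Atp6v0d1, Ctsd and Gla. The stretches below are shown because they hold the longer form, which capitals mark in either orientation. Ctsd holds a second match, which is not shown. They lie at chr14:47568408-47568455 (Atg14, minus strand), chr16:45158713-45158783 (Atg3, plus), chr6:114670942-114670989 (Atg7, plus), chr8:13159113-13159160 (Lamp1, plus), chr8:3500426-3500501 (Mcoln1, plus), chr8:105566042-105566089 (Atp6v0d1, minus), chr7:142388045-142388077 (Ctsd, minus) and chrX:134601174-134601221 (Gla, minus). The windows of Atg7 and Atg14 lie wholly inside the gene spans used here (GENCODE M21). Those spans begin at 114643097 for Atg7 and, on the minus strand, at 47570649 for Atg14. The starts used for Atg3, Mcoln1, Ctsd and Gla also lie inside their gene spans, but near the beginning, so their windows reach outside. A match is a description of the letters and not evidence of binding.
Atg14: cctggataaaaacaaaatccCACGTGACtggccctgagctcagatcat
Atg3: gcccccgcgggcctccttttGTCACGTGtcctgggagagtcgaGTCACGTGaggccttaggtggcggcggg
Atg7: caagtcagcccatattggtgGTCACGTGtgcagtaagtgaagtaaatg
Lamp1: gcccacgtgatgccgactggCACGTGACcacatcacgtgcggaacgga
Mcoln1: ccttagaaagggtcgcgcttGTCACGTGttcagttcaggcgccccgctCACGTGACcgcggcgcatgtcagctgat
Atp6v0d1: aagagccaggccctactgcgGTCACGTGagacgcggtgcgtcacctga
Ctsd: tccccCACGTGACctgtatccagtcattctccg
Gla: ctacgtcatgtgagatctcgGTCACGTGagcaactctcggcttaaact

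Counts in genes summed to 34567899 to 47929948 per library. The defining CD4 T cell transcripts were present throughout, with a summed level of 5896 to 6536 CPM (the usual depth-scaled count, here with edgeR's TMM factors) in desIgf1 libraries and 5880 to 6070 CPM in control libraries for 8 markers. Il17a, whose reporter was used for the sort, was at 125 to 159 CPM in desIgf1 libraries and at 66.0 to 109 CPM in control libraries. On the first principal component, with 43.5% of the variance, both libraries numbered 3 stood apart from the other 4. On the second, with 27.0%, the groups were apart. The desIgf1 libraries numbered 1 to 3 were at 13.1, 39.8 and 16.7, and the control libraries at -35.0, -22.3 and -12.3. Whether each library had its own culture or mouse is not stated, so a p-value here reflects the spread among libraries, which may be technical.

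None of the 43 genes passed the test for a difference between desIgf1 and control cells. In edgeR's quasi-likelihood test 0 of 43 had an adjusted p under 0.05, and over all 13846 genes 0 did (0%). At an unadjusted p under 0.05 there was 1 of the 43 (2.33%), Gabarapl1, against 8.16% of all genes. limma voom also called 0 of the 43 (0% of all genes), and DESeq2 called 0 of the 43 while it called 1.49% of all genes. With the replicate number as a block edgeR again called 0 of the 43, at 0.318% of all genes called, and voom also 0, at 0.455%. DESeq2 with that block called 1 of the 43, Gabarapl1, and 4.65% of all genes. In bulk RNA fewer cells of a type and less RNA per cell cannot be told apart.

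The estimated differences between the groups were small, and the intervals show how uncertain each estimate was given the spread among libraries. The log2 fold changes of the 43 genes ran from -0.52 to 0.31, with 23 above 0, 20 below 0 and a median of 0.03. The median over all tested genes was -0.0052. The median standard error was 0.12 for the 43 genes and 0.18 for all tested genes. For all 43 the 95% interval of the log2 fold change lay between -1 and 1, which held for 70.9% of all tested genes, and for 27 of the 43 it lay between -0.5 and 0.5, against 37.6%. In this fit, without the replicate block and with 3 libraries a group, changes within these intervals may have gone undetected. Each interval is for a single gene and is not adjusted for the number of genes. With the replicate number as a block some intervals were narrower. That of Lamp2 was -0.015 to 0.46 with the block and -0.28 to 0.77 without it. That of Gabarapl1 was slightly wider, -0.86 to -0.16 with the block and -0.85 to -0.20 without it. Only Gabarapl1 and Gabarapl2 had an absolute log2 fold change above 0.3 (4.65% of the 43), against 28.7% of all tested genes and 17.3% of the 9259 tested genes at the members' mean levels of 7.12 to 529 CPM. That count depended on the libraries: without both libraries numbered 3 it was 6 of the 43, with Atg12, Rb1cc1, Lamp2 and Hexa added, against 38.8% of all genes. It was also 6 without control library 3 (34.6% of all genes) or control library 2 (33.1%), and 5 without desIgf1 library 3 (37.9%). In 2 of the 43 (4.65%), Gabarapl1 and Wipi2, the groups did not overlap, against 13.5% of all genes. Both were lower with desIgf1 (6.18% of all genes), and 0 of the 43 lay higher without overlap (7.31%). The summed level of the 43 genes was 4238, 4391 and 4175 CPM in desIgf1 libraries 1 to 3, and 4331, 4032 and 4399 CPM in the control libraries numbered 1 to 3. The 2 sets of sums overlapped (two-sided exact permutation p = 1, where the smallest possible p is 0.1).

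**Figure D1:**
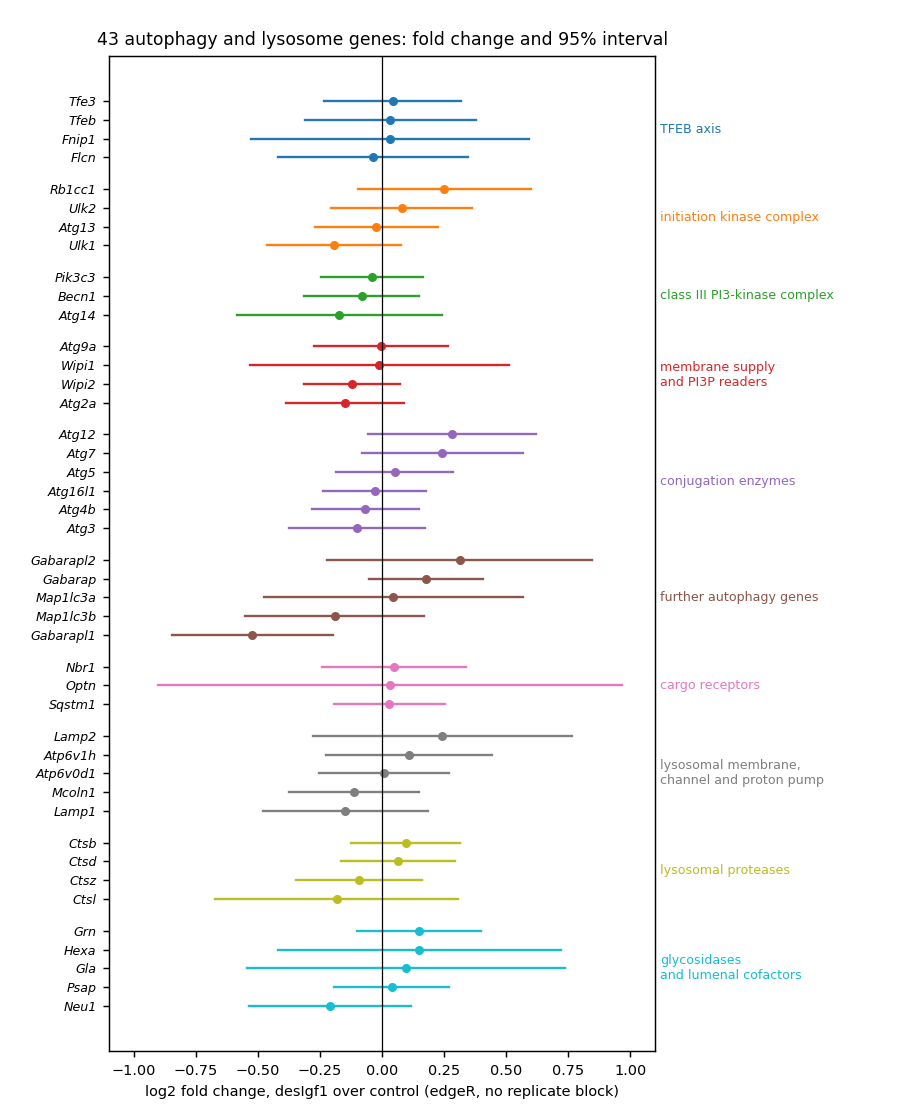
Log2 fold change of each of the 43 genes, desIgf1 over control, on the x axis (edgeR without a replicate block), with genes on the y axis grouped and coloured by role or as further autophagy genes; points are estimates and lines are 95% intervals. Every interval lies between -1 and 1, and among these genes only that of Gabarapl1, from -0.85 to -0.20, does not include 0.

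**Figure D2:**
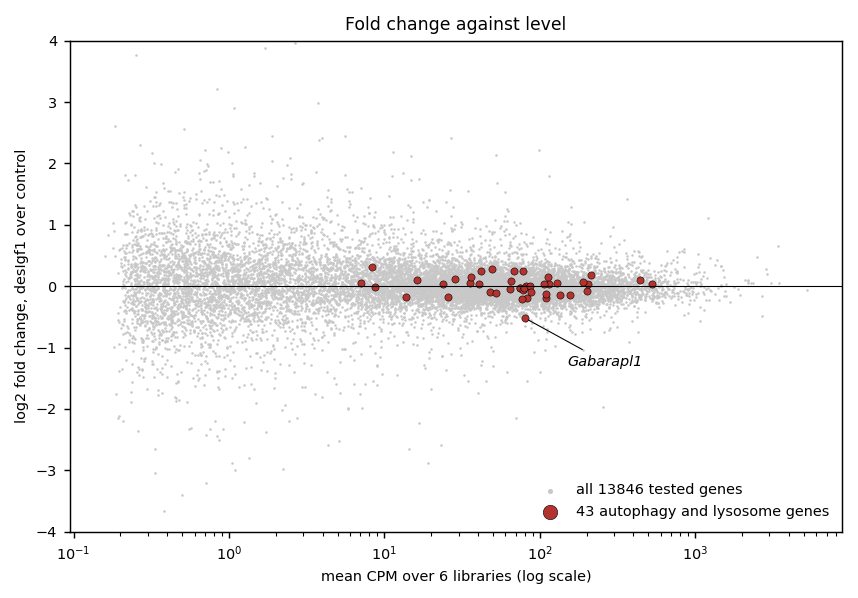
Log2 fold change, desIgf1 over control, on the y axis against the mean level in CPM over 6 libraries on a logarithmic x axis, for all 13846 tested genes (grey, 2 of them beyond the axis) and the 43 autophagy and lysosome genes (red). The 43 genes lie between -0.52 and 0.31, with Gabarapl1 the lowest of them.

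The direction of the median was not the same in the 3 replicate numbers. Libraries with the same number deviated together from their group means, and the median log2 ratio of the 43 genes between desIgf1 and control libraries was -0.02 for number 1, 0.14 for number 2 and -0.10 for number 3. Of the 43 genes, 6 were higher and 5 were lower with desIgf1 in all 3 numbers (25.6% together), against 20.9% of all tested genes higher, 17.2% lower and 38.0% together. The 6 were Tfe3, Atg7, Gabarap, Lamp2, Atp6v1h and Grn, and the 5 were Becn1, Wipi2, Atg4b, Gabarapl1 and Lamp1. Without both libraries numbered 3, in a fit without the block that called 0 of the 43 genes, several estimates moved by more than 1.5 times. The log2 fold change was then 0.58 for Gabarapl2, 0.46 for Atg12 and 0.40 for Rb1cc1, all larger than with 6 libraries. It was -0.13 for Ulk1, -0.12 for Neu1, -0.10 for Map1lc3b, -0.09 for Atg2a and -0.02 for Mcoln1, all nearer to 0. Tfeb was at 0.09 and Sqstm1 at 0.10.

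The 4 genes of the TFEB axis, which controls the pathway's transcription, had log2 fold changes between -0.04 and 0.04. Tfeb, which encodes the master regulator of lysosomal genes, was at 21.6, 24.2 and 26.3 CPM in the desIgf1 libraries numbered 1 to 3 and at 21.7, 21.5 and 27.4 CPM in the control libraries numbered 1 to 3. The groups overlapped (log2 fold change 0.03 ± 0.15 SE, edgeR adjusted p = 0.962), and the sign turned when single libraries were left out. Tfe3, its relative on the X chromosome, was at 123, 102 and 121 CPM in desIgf1 libraries and at 120, 100 and 117 CPM in control libraries. Its log2 fold change was 0.04 ± 0.12 SE (edgeR adjusted p = 0.931), and its sign too turned without single libraries. Per kilobase of exon, the level of Tfe3 was 12.5 CPM in desIgf1 cells and 12.1 CPM in control cells, and that of Tfeb was 4.24 and 4.15 CPM per kilobase in the same order. Flcn and Fnip1 encode folliculin and its partner, a GTPase-activating complex at the lysosome that lets mTORC1 act on TFEB. Their log2 fold changes were -0.04 and 0.03. Fnip1 varied most within groups, with 109, 127 and 88.0 CPM in desIgf1 libraries and 91.7, 146 and 79.8 CPM in control libraries, and in each group library 2 was the highest and library 3 the lowest.

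The initiation complex consists of the kinases ULK1 and ULK2, ATG13 and the scaffold FIP200 (Rb1cc1). Ulk1 was at 106, 105 and 94.5 CPM in the desIgf1 libraries numbered 1 to 3 and at 129, 102 and 119 CPM in the control libraries numbered 1 to 3. Control library 2 lay among the desIgf1 libraries (log2 fold change -0.19 ± 0.11 SE, edgeR adjusted p = 0.656). Rb1cc1 was at 80.2, 84.4 and 58.6 CPM in desIgf1 libraries and at 65.8, 59.6 and 62.3 CPM in control libraries. Libraries 1 and 2 of the desIgf1 group lay above all controls and library 3 below them (0.25 ± 0.15 SE, edgeR adjusted p = 0.659). With the block and a correction for GC content and exon length the log2 fold change of Rb1cc1 was 0.07. Ulk2 and Atg13 had log2 fold changes of 0.08 and -0.02.

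All 3 genes of the class III PI3-kinase complex, which makes the lipid PI3P on the forming membrane, had estimates below 0, between -0.17 and -0.04. Becn1, the gene of beclin 1, was at 201, 180 and 201 CPM in desIgf1 libraries and at 202, 191 and 225 CPM in control libraries. It was lower in each replicate number, by little, and the groups overlapped (log2 fold change -0.08 ± 0.10 SE, edgeR adjusted p = 0.826). Of the exon length of Becn1, 43.9% overlaps Cntd1 on the other strand, which was at 2.30 to 3.99 CPM. Atg14, the subunit that directs the complex to autophagy, was at 22.6, 24.4 and 25.2 CPM in desIgf1 libraries and at 23.2, 23.7 and 34.6 CPM in control libraries. Pik3c3, the catalytic subunit, had a log2 fold change of -0.04 and the narrowest spread over the 6 libraries among the 43 genes, with a highest level 0.11 above the lowest on the log2 scale.

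The genes of membrane supply and of PI3P readers also had estimates at or below 0. Wipi2, which binds PI3P and recruits the conjugation complex, was at 105, 108 and 103 CPM in the desIgf1 libraries numbered 1 to 3 and at 113, 114 and 116 CPM in the control libraries numbered 1 to 3. All 3 desIgf1 libraries were below all 3 controls, by a small margin (log2 fold change -0.12 ± 0.08 SE, edgeR adjusted p = 0.690). Atg2a, a lipid transfer protein that feeds the growing membrane, was at 126, 134 and 121 CPM in desIgf1 libraries and at 150, 126 and 147 CPM in control libraries. Control library 2 overlapped the desIgf1 libraries (-0.15 ± 0.10 SE, edgeR adjusted p = 0.685). Of the exon length of the scramblase gene Atg9a, 31.8% overlaps Gm29253 on the same strand, which is not among the counted genes. Wipi1 and Atg9a had log2 fold changes of -0.01 and -0.0040, and Wipi1 was the least abundant of the 43 genes per kilobase of exon, at 1.96 CPM per kilobase in desIgf1 cells and 1.97 in control cells.

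Among the conjugation enzymes, which carry out the ubiquitin-like reactions of autophagy, Atg12 and Atg7 were the highest with desIgf1 relative to control. Atg12, the ubiquitin-like protein that is joined to ATG5, was at 53.9, 56.4 and 52.7 CPM in the desIgf1 libraries numbered 1 to 3 and at 42.2, 37.9 and 54.2 CPM in the control libraries numbered 1 to 3. Control library 3 lay among the desIgf1 libraries (log2 fold change 0.28 ± 0.14 SE, edgeR adjusted p = 0.633). Atg7, the E1-like enzyme of both conjugation systems, was at 42.6, 39.6 and 53.2 CPM in desIgf1 libraries and at 36.0, 37.1 and 41.4 CPM in control libraries. It was higher in each replicate number, but the groups overlapped (0.24 ± 0.14 SE, edgeR adjusted p = 0.649). Atg3, Atg4b, Atg5 and Atg16l1 had log2 fold changes between -0.10 and 0.05.

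Gabarapl1, a ubiquitin-like protein gene, was the lowest of all 43 genes with desIgf1 relative to control. It was at 65.2, 62.4 and 70.6 CPM in the desIgf1 libraries numbered 1 to 3 and at 105, 103 and 77.2 CPM in the control libraries numbered 1 to 3. The groups did not overlap, and control library 3 was nearest to the desIgf1 libraries. The log2 fold change was -0.52 ± 0.14 SE (0.696-fold, 95% interval -0.85 to -0.20), with an edgeR adjusted p of 0.417 and of 0.207 with the replicate block. By number, its log2 ratio was -0.69, -0.72 and -0.13 in numbers 1, 2 and 3. In DESeq2 its adjusted p was 0.0646, and 0.0429 once the block was added. Without both libraries numbered 3 the blocked edgeR fit gave a log2 fold change of -0.70 and an adjusted p of 0.00814, in a fit that called 7.64% of all genes. The same fit without number 1 (0.513% of all genes called) or without number 2 (4.42%) called 0 of the 43.

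In 4 further genes of this kind the groups overlapped. Gabarap was at 213, 240 and 222 CPM in desIgf1 libraries and at 198, 183 and 217 CPM in control libraries, higher in each number but overlapping (log2 fold change 0.18 ± 0.10 SE, edgeR adjusted p = 0.645). Map1lc3b was at 70.2, 76.1 and 85.3 CPM in desIgf1 libraries and at 81.9, 75.4 and 107 CPM in control libraries (-0.19 ± 0.15 SE, edgeR adjusted p = 0.721). Gabarapl2 was at 9.24, 9.52 and 9.08 CPM in desIgf1 libraries and at 6.82, 5.75 and 9.88 CPM in control libraries, with control library 3 above all desIgf1 libraries (0.31 ± 0.23 SE, edgeR adjusted p = 0.703). Map1lc3a had a log2 fold change of 0.05. Per kilobase of exon, the levels in desIgf1 and control cells were 122 and 108 CPM for Gabarap, 32.8 and 47.2 for Gabarapl1, 10.3 and 11.7 for Map1lc3b, 6.12 and 5.93 for Map1lc3a, and 3.99 and 3.22 for Gabarapl2. Reads that align to several places are not in the counts, and 12.2% of the 50-base words in Gabarapl2 transcripts also occur in 4 other annotated genes, so its level may be understated. The exons of Gabarapl1 overlap 1700101I11Rik on the other strand over 28.3% of their length, and that gene reached at most 0.219 CPM.

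The 250 bases before the annotated start of Gabarapl1 (chr6:129532942-129533191, plus strand, GRCm38.p6) are shown because it had the largest difference of the 43 genes. None of the E-box forms above occurs in its window, so no letter is in capitals.
Gabarapl1: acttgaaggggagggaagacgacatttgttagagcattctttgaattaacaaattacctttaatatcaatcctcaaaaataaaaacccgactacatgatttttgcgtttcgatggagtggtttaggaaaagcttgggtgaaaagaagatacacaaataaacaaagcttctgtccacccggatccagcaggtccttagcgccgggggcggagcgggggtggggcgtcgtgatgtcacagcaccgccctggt

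The cargo receptors deliver ubiquitinated material to the autophagosome, and their 3 genes had log2 fold changes between 0.03 and 0.05. Sqstm1, the gene of p62, was at 196, 222 and 203 CPM in the desIgf1 libraries numbered 1 to 3 and at 202, 189 and 218 CPM in the control libraries numbered 1 to 3. The groups overlapped throughout (log2 fold change 0.03 ± 0.10 SE, edgeR adjusted p = 0.946), and the sign turned without single libraries. Of its exon length 17.3% overlaps Mrnip on the other strand, which was at 5.21 to 7.41 CPM. Nbr1 had a log2 fold change of 0.05. Optn, the gene of optineurin, had the largest difference of the 43 genes between the libraries numbered 3 and the others. It was at 35.2, 30.3 and 57.1 CPM in desIgf1 libraries and at 29.0, 25.6 and 65.5 CPM in control libraries. Both libraries numbered 3 were above the other 4. Without the block the log2 fold change of 0.03 ± 0.40 SE had the widest interval of the 43, from -0.90 to 0.97. With the block it was 0.11 ± 0.13 SE, with an interval from -0.21 to 0.42.

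The membrane of the lysosome is lined by LAMP1 and LAMP2, holds the calcium channel TRPML1 (Mcoln1) and is acidified by the V-ATPase. Lamp1 was at 170, 147 and 130 CPM in desIgf1 libraries and at 183, 173 and 140 CPM in control libraries. It was lower in each number, and the groups overlapped (log2 fold change -0.15 ± 0.14 SE, edgeR adjusted p = 0.772). Lamp2 was at 95.1, 99.4 and 58.8 CPM in desIgf1 libraries and at 78.0, 79.8 and 56.3 CPM in control libraries, higher in each number (0.24 ± 0.22 SE, edgeR adjusted p = 0.762, and 0.375 with the block). The libraries numbered 3 were the lowest of their group for both genes. Mcoln1 was at 49.5, 53.8 and 47.6 CPM in desIgf1 libraries and at 55.9, 48.6 and 58.8 CPM in control libraries, with overlap (-0.11 ± 0.11 SE, edgeR adjusted p = 0.782). The V-ATPase subunit genes Atp6v0d1 and Atp6v1h had log2 fold changes of 0.01 and 0.11.

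The lysosomal lumen holds proteases, glycosidases and their cofactors, and its 9 genes had log2 fold changes between -0.21 and 0.15. Psap, the precursor of the saposins that help degrade sphingolipids, had the highest level per kilobase of exon among the 43 genes, 195 CPM in desIgf1 cells and 190 in control cells. It was followed by Gabarap, by the aspartic protease gene Ctsd with 82.1 and 78.6 CPM per kilobase, and by the cysteine protease gene Ctsb with 75.1 and 70.4. Ctsd was at 183, 193 and 203 CPM in desIgf1 libraries and at 197, 166 and 191 CPM in control libraries, with overlap (log2 fold change 0.06 ± 0.10 SE, edgeR adjusted p = 0.866), and its sign turned without single libraries. Of the 50-base words in its transcripts 32.4% also occur in Gm49369, an overlapping annotated gene that is not among the counted genes. Ctsb, Ctsl and Ctsz had log2 fold changes of 0.09, -0.18 and -0.10. Of the exon length of Ctsb 12.8% overlaps Fdft1 on the other strand, which was at 49.7, 65.3 and 53.6 CPM in desIgf1 libraries and reached 51.3 CPM in control libraries. Of the exon length of Ctsl 26.9% overlaps Gm47123 on the other strand, which is not among the counted genes either. Grn, the gene of progranulin, was at 115, 118 and 121 CPM in desIgf1 libraries and at 93.8, 108 and 118 CPM in control libraries, higher in each number but overlapping (0.15 ± 0.11 SE, edgeR adjusted p = 0.701). Neu1, a sialidase, was at 73.1, 75.1 and 64.7 CPM in desIgf1 libraries and at 93.8, 67.9 and 84.7 CPM in control libraries, with control library 2 among the desIgf1 libraries (-0.21 ± 0.14 SE, edgeR adjusted p = 0.680). Hexa, a subunit of β-hexosaminidase, and Gla, an α-galactosidase, had log2 fold changes of 0.15 and 0.10. Of the exon length of Hexa 12.8% overlaps Tmem202, which reached at most 0.250 CPM.

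For 13 of the 43 genes (30.2%) both libraries numbered 3 lay beyond the other 4, against 27.5% of all tested genes, a share near theirs. They were higher for Tfeb, Atg14, Atg4b, Map1lc3b, Optn, Atp6v0d1 and Hexa, and lower for Fnip1, Atg9a, Lamp1, Lamp2, Atp6v1h and Gla. Of these Optn, Gla, Lamp2, Hexa and Fnip1 differed most. Gla, like Lamp2 and Fnip1, was lowest in both libraries numbered 3, with 17.6, 19.8 and 12.5 CPM in desIgf1 libraries and 14.1, 21.4 and 11.2 CPM in control libraries. Hexa, like Optn, was highest there, with 32.1, 39.0 and 42.2 CPM in desIgf1 libraries and 26.6, 27.4 and 48.3 CPM in control libraries. The mean of the number 3 libraries against that of the other 4, on the log2 scale, was 1.03 for Optn, 0.53 for Hexa, -0.61 for Lamp2, -0.62 for Gla and -0.50 for Fnip1. A test of the replicate number in the blocked edgeR fit, added after the values were seen, called 0 of the 43 genes, against 1.37% of all genes. At an unadjusted p under 0.05 there were 6 of the 43, Optn, Lamp2, Fnip1, Gla, Lamp1 and Hexa, against 16.4% of all genes, a share near theirs. The labels do not say what a replicate number stands for.

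**Figure D3:**
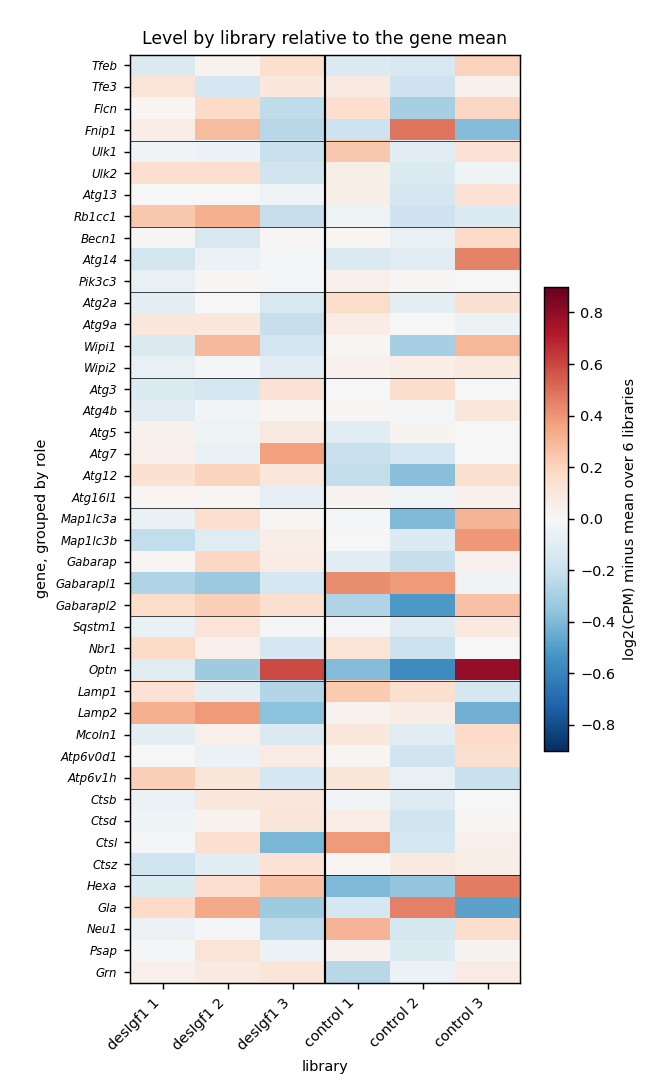
Log2 CPM of each of the 43 genes (rows, grouped by role) in each library (columns, desIgf1 left and control right) as a difference from the gene's mean over the 6 libraries, shown as colour from blue (lower) to red (higher). Optn stands out as high in both libraries numbered 3. Gabarapl1 is highest in control libraries 1 and 2 and lowest in the 3 desIgf1 libraries, with control library 3 close to them.

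The members with the longer E-box form in their promoter did not stand apart by treatment. The 8 genes with GTCACGTG had log2 fold changes from -0.17 to 0.24 with a median of -0.05, and the 27 other genes with a window had a median of 0.03. The ends of that range were Atg14 and Atg7, whose windows lie inside the annotated gene spans. The 11 genes with CACGTG had a median of 0.0078.

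Genes of the same pathway beyond the 43 were taken from 5 lists with 167 genes, of which 164 were tested. In edgeR 0 of the 164 passed, without or with the replicate block, and 11 (6.71%) had an unadjusted p under 0.05, against 8.16% of all genes. The median log2 fold change was 0.0041 over 44 other autophagy genes, 0.06 over 42 other lysosomal hydrolases and cofactors, 0.05 over 30 other lysosomal membrane proteins, 0.05 over 16 other V-ATPase subunits and -0.04 over 32 genes of mTORC1 and AMPK control at the lysosome. DESeq2 called 3 of the 164 (1.83%, against 1.49% of all genes), all hydrolases, with 2 higher (0.819% of all genes were called higher) and 1 lower (0.671%). With the block DESeq2 called 7 of the 164 (4.27%, against 4.65% of all genes), 5 higher and 2 lower. The blocked edgeR fit called 7 of them without number 2 (4.27%, against 4.42%) and 10 without number 3 (6.10%, against 7.64%). These shares were near those over all genes.

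The 3 hydrolase genes that DESeq2 called were Lgmn, Galc and Asah1. Lgmn, the gene of legumain, an asparaginyl endopeptidase, was at 14.4, 15.7 and 11.6 CPM in the desIgf1 libraries numbered 1 to 3 and at 46.3, 22.9 and 37.8 CPM in the control libraries numbered 1 to 3. The groups did not overlap. The log2 fold change was -1.36 ± 0.26 SE (0.389-fold), with adjusted p-values of 0.302 in edgeR, 0.125 with the block and 0.000148 in DESeq2. Galc, which removes galactose from galactosylceramide, was at 13.9, 20.5 and 10.4 CPM in desIgf1 libraries and at 6.56, 7.01 and 6.93 CPM in control libraries, again with no overlap. Its log2 fold change was 1.13 ± 0.26 SE (2.18-fold, adjusted p = 0.359 in edgeR, 0.137 with the block and 0.00583 in DESeq2). Asah1, an acid ceramidase gene named after its values were seen, was at 54.9, 68.2 and 49.9 CPM in desIgf1 libraries and at 34.6, 42.0 and 37.7 CPM in control libraries (0.60 ± 0.15 SE, adjusted p = 0.396 in edgeR, 0.106 with the block and 0.0436 in DESeq2).

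From the other lists the genes with the smallest p did not pass edgeR or DESeq2 without the block. Fundc1, a receptor for mitophagy, and Tmem41b, which acts in autophagosome formation, were higher in all desIgf1 libraries than in all controls, with log2 fold changes of 0.32 and 0.43 (edgeR adjusted p = 0.523 and 0.530). Abcb9, a lysosomal peptide transporter, had 0.95 (adjusted p = 0.527) and Mfsd8, a lysosomal membrane protein, 0.37 (0.608). Fnip2, the paralogue of Fnip1, was at 4.03, 2.97 and 3.53 CPM in desIgf1 libraries and at 5.68, 7.11 and 4.04 CPM in control libraries, with no overlap and a log2 fold change of -0.68 ± 0.27 SE (edgeR adjusted p = 0.603). Ppp3r1, the regulatory subunit of calcineurin, which dephosphorylates TFEB, had 0.36 (adjusted p = 0.608). The V-ATPase subunit genes Atp6v1a and Atp6v1d had 0.18 and -0.21 (0.640 and 0.715). Some of these estimates depended on a correction for GC content and exon length. With it and the replicate block the log2 fold change was 0.07 for Fundc1 and 0.31 for Tmem41b. Abcb9 (0.92) and Fnip2 (-0.60) moved less.

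**Figure D4:**
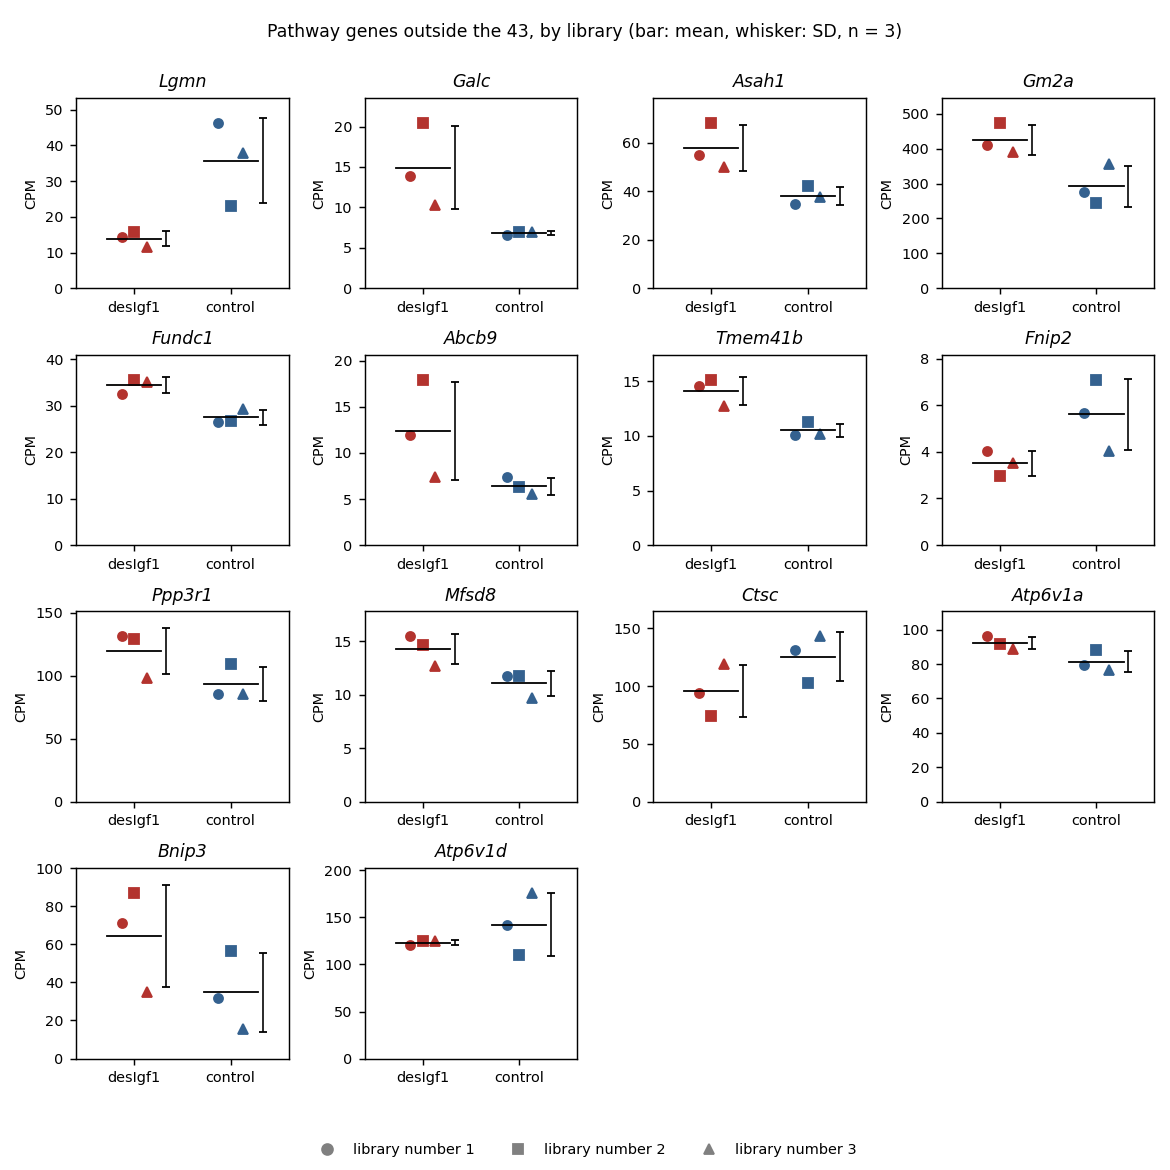
Level in CPM on the y axis of 14 pathway genes outside the 43, with desIgf1 and control libraries on the x axis; symbols are libraries by number, bars are means and whiskers are SD with n = 3. Lgmn lies at 11.6 to 15.7 CPM in desIgf1 libraries and at 22.9 to 46.3 CPM in control libraries, and Galc at 10.4 to 20.5 CPM and 6.56 to 7.01 CPM in that order.

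Lysosomal genes are also abundant in myeloid cells, and the cultures contained irradiated splenocytes. The 15 macrophage markers summed to 156, 163 and 181 CPM in desIgf1 libraries and to 134, 95.3 and 182 CPM in control libraries (two-sided exact permutation p = 0.4, smallest possible 0.1). Most of each sum was Ctss, at 136 to 167 CPM in desIgf1 libraries and at 79.2 to 175 CPM in control libraries. Ctss is also in the list of other lysosomal hydrolases above, and the marker Cd68 in that of other lysosomal membrane proteins. The sum is therefore not a measure of macrophage RNA apart from the pathway. Of the 15 markers 10 were below 1 CPM in all 6 libraries, among them C1qb and Cd163, which were at 0, and Lyz2 was at 4.30 to 7.64 CPM in desIgf1 libraries and 1.40 to 6.18 CPM in control libraries. The 13 dendritic cell markers summed to 184, 210 and 273 CPM in desIgf1 libraries and to 153, 198 and 201 CPM in control libraries, higher with desIgf1 in each number (exact permutation p = 0.4 over unpaired libraries). Most of that sum was Cst3, H2-Ab1 and Cd74. Ccl22, a chemokine gene, was at 5.81, 5.63 and 35.2 CPM in desIgf1 libraries and at 1.45, 2.09 and 13.5 CPM in control libraries, and H2-Ab1, a class II antigen presentation gene, averaged 77.3 ± 14.5 CPM in desIgf1 libraries and 60.2 ± 25.7 CPM in control libraries (SD, n = 3 each). Both were higher with desIgf1 in each number, while Xcr1, Cd209a and Siglech were at 0. Flt3, below 1 CPM in all 6 libraries, was also higher in each number (0.350, 0.356 and 0.868 against 0.175, 0.211 and 0.487 CPM). Itgax and Zbtb46 averaged higher with desIgf1 (0.587 against 0.382 CPM, and 0.999 against 0.706 CPM). In number 2 they were lower (0.261 against 0.375 CPM, and 0.404 against 0.516 CPM). Not all markers of the list followed this direction. The class II gene H2-Eb1 averaged lower with desIgf1 (0.952 against 1.41 CPM) and was lower in each number. H2-Aa, also of class II, averaged lower too (1.16 against 1.70 CPM), but only number 3 was lower (1.51 against 3.49 CPM). In numbers 1 and 2 H2-Aa was higher with desIgf1 (0.776 against 0.702 CPM, and 1.19 against 0.891 CPM). Cst3 averaged 83.6 CPM with desIgf1 and 83.8 CPM in control libraries. Cd74 averaged 41.9 and 29.6 CPM in that order, but was not higher in number 2 (17.6 against 17.8 CPM). The 9 B cell markers summed to 57.4 to 99.0 CPM in desIgf1 libraries and to 69.6 to 178 CPM in control libraries (p = 0.6, exact permutation), nearly all of it Ighm. NK cell (4.06 to 7.01 CPM), neutrophil (0 to 0.716 CPM), CD8 T cell (3.22 to 11.0 CPM) and erythroid markers (0 to 0.0658 CPM) were low in all 6 libraries. Their part in the levels of the 43 genes was not tested.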

How the data were processed

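The authors deposited raw, unnormalized counts per Ensembl gene, 1 library per sample. The submitters' processing notes list HTSeq 0.7.2, STAR 2.5.3, Trim Galore 0.4.5, DESeq2 1.18.1, SAMtools 0.1.18, R 3.4.3 and the build GRCm38 (mm10). No annotation release is named. The library kit keeps strand, and the names of the deposited files carry the word reverse, a strand setting of HTSeq; no label states it, so the overlap is given for members that share over 10% of their exon length with another gene. The 5 summary lines that name no gene stayed out: 13.5 to 15.7% of uniquely placed reads overlapped no gene, and 46.4 to 48.7% of all entries were not unique.

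Of 39179 identifiers, 37693 were found in GENCODE M21 (GRCm38), the source of symbols and exon lengths. The test was the robust quasi-likelihood F test of edgeR 4.0.16 (R 4.3.3) with group as the only term, after TMM scaling and filterByExpr at a minimum count of 10, with Benjamini-Hochberg adjustment over all 13846 genes. The standard error is the size of the log2 fold change divided by the square root of F, and the 95% interval uses the fit's t quantile. limma 3.58.1 (voom) and DESeq2 1.42.0 were alternatives. The procedure was tested on simulated data. Same-numbered libraries deviated together (correlations 0.59, 0.32 and 0.55 across genes), so the numbers, which titles give, were treated as pairs from the data, and the block is an alternative.

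Members and lists were chosen with earlier results of these data known. Values by library are given for members past the threshold with or without block, the 12 with the smallest p, those without overlap, and 9 set names. Each wider list names its 2 smallest p. Some items are not reported here.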

Additional observations from a re-analysis of the deposited data

How the results depend on the processing

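Over 19 alternative settings the 19 genes of the pathway described library by library gave 361 values, of which 13 had the other sign and 2 passed the threshold, both Gabarapl1. Of the 19 genes 15 kept their direction in every setting. Tfeb, Tfe3, Sqstm1 and Ctsd, which did not, were among the 9 set names and not among the 12 with the smallest p. Those 12 were picked from these same libraries, which every setting fits again, so the count is no independent support. The share of all genes that kept their direction was not computed. With 1 library left out, the log2 fold change ran from -0.063 to 0.16 for Tfeb, -0.035 to 0.12 for Tfe3, -0.028 to 0.083 for Sqstm1 and -0.0060 to 0.11 for Ctsd. With the replicate block and without number 2 it was -0.030 for Tfeb, -0.070 for Sqstm1 and -0.0049 for Ctsd, and no other of the 19 reversed. The median of the 43 genes ran from -0.06 to 0.06 over all fits with a library or a number left out.

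The count of genes called over all genes moved from 0 to 44 with the replicate block (25 higher, 19 lower), 16 without a filter on low counts, 202 in DESeq2, and 11 with the block and a GC and length correction. It was 606 in DESeq2 with the block, 63 in limma voom with the block and 12 without both libraries numbered 3, settings added after seeing the data. It was 0 with any 1 library left out, and with the block 72, 620 and 1069 without numbers 1, 2 and 3. Of the 43 genes 1 was called in DESeq2 with the block, and 0 to 1 with a library or a number left out (Gabarapl1, with the block and without number 3). Of the wider pathway genes DESeq2 called 3, and 7 with the block, and edgeR called 0 to 10 with a library or a number left out, at shares near those over all genes. The cause of these differences was not tested.

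With 1 library left out the log2 ratio of summed marker CPM ran from -0.69 to 0.054 for B cells, -0.20 to 0.31 for NK cells, -3.77 to 0.23 for neutrophils, -1.02 to 0.15 for erythroid cells and -0.0024 to 0.073 for CD4 T cells. It stayed above 0 for macrophages (0.076 to 0.54) and dendritic cells (0.10 to 0.40). Neutrophil and erythroid sums were too near 0 to read, and without control library 1 the control erythroid sum was 0, which gives no ratio. With all 6 libraries the replicate block changed no call among the 43 genes in edgeR. Without both libraries numbered 3, Gabarapl1 passed edgeR with the block (adjusted p = 0.00814) but not without it (adjusted p = 0.0693).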

Other observations

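Beyond the genes described above, Bnip3, Gm2a and Ctsc of the wider pathway lists passed DESeq2 with the replicate block but not edgeR on all 6 libraries, and they are named after their values were seen. In the blocked edgeR fit without number 3, which called 7.64% of all genes, their adjusted p-values were 0.00838, 0.0109 and 0.0379. Bnip3, a mitophagy receptor that responds to low oxygen, was at 71.3, 87.0 and 34.8 CPM in the desIgf1 libraries numbered 1 to 3 and at 32.0, 56.8 and 15.4 CPM in the control libraries numbered 1 to 3, higher with desIgf1 in each number although the groups overlapped. Its log2 fold change was 0.89 ± 0.51 SE (edgeR adjusted p = 0.649, 0.0692 with the block, DESeq2 with the block 1.88e-06). It was 1.44 without control library 2 and 0.54 without control library 3. The blocked edgeR fit without number 2 gave an adjusted p of 1.09e-05. That fit has fewer libraries, and it called 4.42% of all genes, against 0.318% with all 6 libraries. Gm2a, the activator protein for ganglioside breakdown, was at 410, 474 and 391 CPM in desIgf1 libraries and at 275, 244 and 357 CPM in control libraries, with no overlap (0.54 ± 0.16 SE, edgeR adjusted p = 0.463). Ctsc, the protease that activates granule serine proteases, was at 93.8, 74.1 and 119 CPM in desIgf1 libraries and at 131, 103 and 143 CPM in control libraries, lower with desIgf1 in each number (-0.39 ± 0.19 SE, edgeR adjusted p = 0.630). Abcb9, already described, had an adjusted p of 0.0196 in DESeq2 with the block and 0.0170 in the blocked edgeR fit without number 3.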
